A study of Mus musculus with 8 samples.

Results

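The response to rosiglitazone was examined in inguinal adipocytes that carried the control shRNA sh-scr. RNA from 2 arrays of untreated sh-scr cells and 2 arrays of sh-scr cells given 1 µM rosiglitazone was compared, 4 of the 8 arrays of the study. All 8 arrays entered the estimate of spread behind the p-values and the filter on dim genes. That filter left 9295 of the 12393 genes with a named probe set. The cells came from male C57BL/6J mice. Stromal-vascular (SV) cells, the precursor-bearing fraction of a fat pad, had been taken from inguinal (subcutaneous) white fat and differentiated into adipocytes in culture. Both groups carried sh-scr, and the only labelled difference between them was the agent, none or rosiglitazone. The other 4 arrays held sh-PRDM16 cells without and with the same dose, PRDM16 being a nuclear protein that steers cells towards a brown fat identity. Replicates are labelled as biological, with no word on separate cultures or mice, so the p-values below speak only for the spread among the arrays at hand, which may be technical. No source used here gives the age of the mice, the vector of the shRNA or the length of treatment.

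Rosiglitazone is a thiazolidinedione, a drug that binds the nuclear receptor PPARγ. PPARγ pairs with a retinoid X receptor (RXR) on DNA elements made of AGGTCA-like sequences in tandem, and is needed for adipocytes to form and to store lipid. Many genes of lipid uptake, lipid droplets, fatty acid oxidation and glycerol metabolism are known targets. In subcutaneous fat, long exposure to PPARγ agonists is known to bring out a brown-like programme, in which mitochondria burn fuel to make heat through the uncoupling protein UCP1. PPARα, a relative of PPARγ, and the PGC-1 co-activators drive oxidation genes in brown fat and liver.

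The median intensity over all probe sets was 127 and 136 on the untreated arrays and 108 and 100.7 on the treated arrays, so the treated arrays were dimmer as a whole. The median change of the 9295 genes tested was log2 -0.31 on the deposited scale. The spiked RNAs added at hybridization were also lower on the treated arrays, by a median of log2 0.15 over 18 probe sets (treated minus untreated -0.15, range -0.25 to -0.03). They lay 0.26 below the untreated mean on treated replicate 1 (-0.26) and 0.04 below it on replicate 2 (-0.04). The spiked poly-A RNAs had a median difference of -0.42 over 24 probe sets. The part of hybridization and labelling in the shift was not tested. For that reason each gene was fitted on the deposited scale and again with each array centred on its median, where the median change is 0 by construction. "Rose" and "fell" below mean an adjusted p under 0.05 (limma, Benjamini-Hochberg over all genes tested) with the same sign on both scales. Changes are log2 differences, treated minus untreated, from log2(intensity + 16) on centred arrays unless the deposited scale is named, and intensities are as deposited.

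Of the 9295 genes, 486 rose (5.23%) and 1030 fell (11.1%), and these shares are the background for every count below. Calls varied with brightness. Over 10 bins of mean intensity, rises ran from 2.9% (bin 2) to 9.7% (bin 10, the brightest) and falls from 3.1% (bin 1) to 16.5% (bin 7). The background is not matched to the brightness of a list. Lists and members were chosen with earlier results of these data known, so an excess over these shares may reflect that choice. On the deposited scale alone 487 genes were higher (5.24%) and 2996 lower (32.2%), and on centred arrays alone 1377 were higher (14.8%) and 1030 lower (11.1%). No gene passed in opposite directions on the 2 scales, 891 genes were higher only on centred arrays and 1966 were lower only on the deposited scale. On centred arrays the median was log2 1.00 for the rises and -0.45 for the falls, while on the deposited scale it was 0.70 and -0.76, so which set changed more at its median depends on the scale. On the deposited scale 147 rises exceeded log2 1, 31 exceeded 2 and 7 exceeded 4, while 191 falls went below log2 -1, 10 below -2 and 0 below -4. Calls rested on few arrays: 246 genes rose and 378 fell without untreated replicate 1, 318 and 469 without untreated replicate 2, 308 and 755 without treated replicate 1, and 263 and 464 without treated replicate 2.

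**Figure D1:**
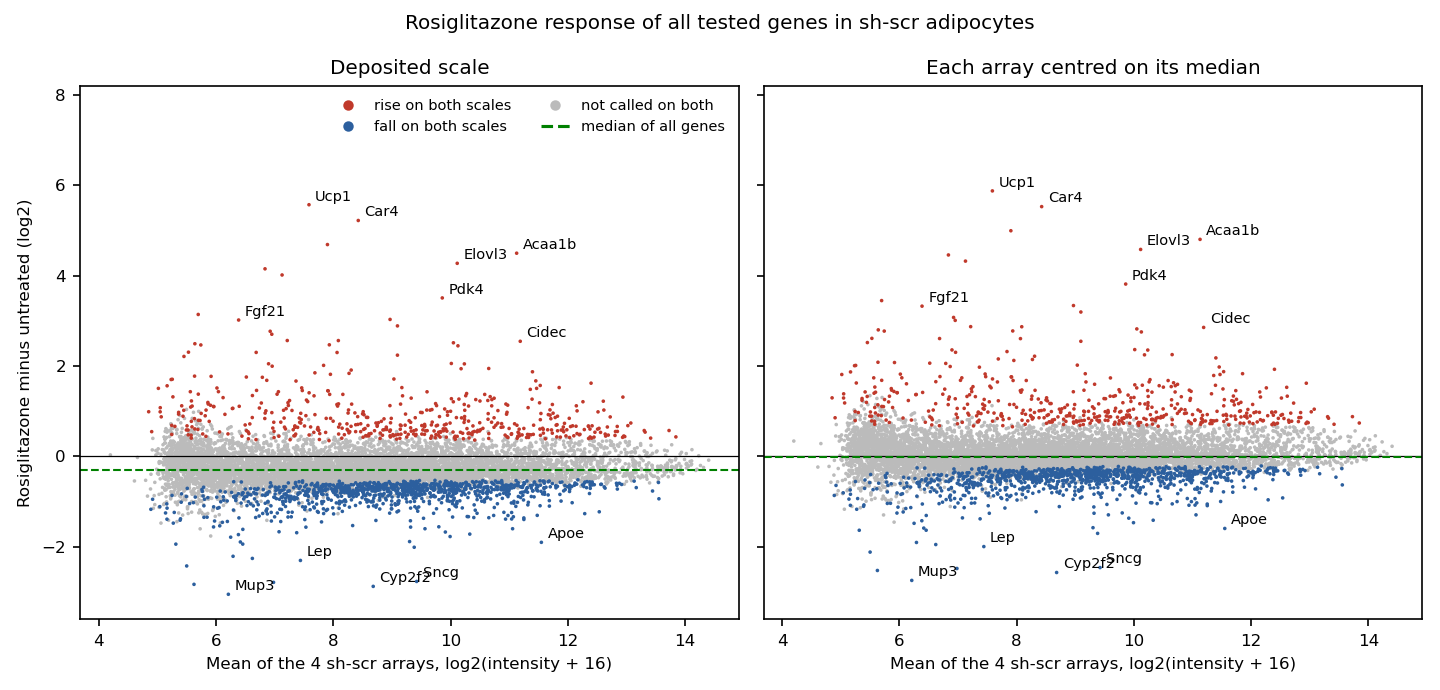
Change of each of the 9295 tested genes (treated minus untreated sh-scr, log2) against its mean over the 4 arrays, log2(intensity + 16), on the deposited scale (left) and with each array centred on its median (right); red and blue points rose or fell on both scales, and the dashed line is the median of all genes. On the left the cloud lies below 0, with its median at -0.31, and 7 rises, Ucp1 among them, lie above log2 4 with 0 falls below -4.

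The labelled cell type was checked on genes that define adipocytes. Adipoq, which encodes adiponectin, read 14760 and 15191 untreated and 13865 and 14526 treated, and the fatty acid carrier Fabp4 read 22736 and 21794 against 20249 and 21844. Lpl, lipoprotein lipase, was between 15980 and 18204 on the 4 arrays. All of them were bright in both groups and none passed on both scales. These readings are among the highest in the table. For Fabp4, 2 dimmer probe sets of mean intensity 465 and 631 changed by 1.45 and 1.25 (adjusted p = 0.0046 and 0.0019 over probe sets) and passed on both scales, while the 2 bright ones changed by 0.23 and 0.18 and did not pass.

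Pparg, the gene of the drug's receptor, was not called. It read 3116 and 3234 untreated and 2559 and 2275 treated (-0.09, adjusted p = 0.38). The RXR gene Rxra fell from 347 and 393 to 227 and 187 (-0.49, adjusted p = 0.0097), though its second, dimmer probe set changed by 0.01. The call of Rxra was lost in 3 of the 13 other settings. Rxrg read 70.1 and 118.0 against 142.7 and 69.1, and its groups overlapped. Of the 15 genes of the PPAR receptors and partners, 4 rose and 1 fell. The 4 were Ppara, the PGC-1 co-activators Ppargc1a and Ppargc1b, and Lpin1, a phosphatidate phosphatase that also acts as a co-activator. Ppara went from 53.3 and 33.4 to 233.9 and 219.3 (2.36, SE 0.21, adjusted p = 0.00088). Ppargc1a went from 123 and 135 to 365 and 399 (1.76, adjusted p = 0.00039), and Ppargc1b from 129 and 168 to 587 and 548 (2.15, adjusted p = 0.00017). For each of these 3 genes both treated arrays lay above both untreated arrays.

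Of 18 adipogenic transcription factors, which build an adipocyte, 0 rose and 2 fell (11.1%, the same share as among all genes). Cebpa read 2091 and 2299 untreated and 1834 and 1825 treated (0.05, adjusted p = 0.74). Cebpd, an early factor, fell from 1378 and 1341 to 719 and 666 (-0.65, adjusted p = 0.0015). Klf15 read 100.2 and 78.6 against 4.3 and 2.8, a change of -2.12 (adjusted p = 0.030), but this call was lost when any of the 4 arrays was left out. Ebf2, a factor of brown and beige precursors, read 270.5 and 242.1 against 192.8 and 201.2 (-0.05, adjusted p = 0.75).

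Of 24 brown-fat-selective genes tested, 15 rose (13 to 14 with an array left out) and 1, the creatine kinase Ckb, fell. Their median change was 1.23 against 0 for all genes, and it moved with the filter on low values, to 0.74 over 32 genes with no filter and to 1.78 over 10 genes with the lower 50% of genes left out. Ucp1 read 5.2 and 20.6 on the untreated arrays and 1295.5 and 1322.0 on the treated arrays. Both treated values were far above both untreated values, which lay near the floor of the arrays, so the fitted change of 5.88 (SE 0.22, adjusted p = 8.6e-05) understates the ratio of intensities. Cidea, which enlarges the lipid droplets of brown adipocytes, read 14 and 24.2 against 510.5 and 584.6, and Fgf21, a secreted hormone, 7.1 and 21.3 against 216.2 and 228.3. Together with the uncharacterised 2610528A11Rik (22.4 and 3.1 against 428.1 and 506.7), these were the genes that went from under an intensity of 32 on both untreated arrays to over 200 on both treated ones, and no gene went the other way.

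Elovl3, which elongates fatty acids, rose from 206.2 and 269.4 to 4862 and 4855 (4.58, adjusted p = 7.5e-05). Fabp3, the muscle and heart form of the fatty acid carrier, rose from 92.1 and 99.5 to 675.5 and 616.0. Nrg4, a secreted growth factor of brown fat, rose from 113.7 and 103.0 to 258 and 287. Dio2, which activates thyroid hormone, changed less, from 123.4 and 121.1 to 180.3 and 177.3 (0.80, adjusted p = 0.0037), and lost its call in 5 of the 12 other settings that tested it. Of 10 beige markers 5 rose and 0 fell. Among them, Car4, a membrane carbonic anhydrase, read 33.1 and 48.5 against 2166 and 2009 (5.53, SE 0.16, adjusted p = 4.9e-05). Cited1, a transcriptional co-regulator, read 4.9 and 3.8 against 77.5 and 79.3, and Tnfrsf9 15.7 and 10.4 against 41.4 and 53.

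**Figure D2:**
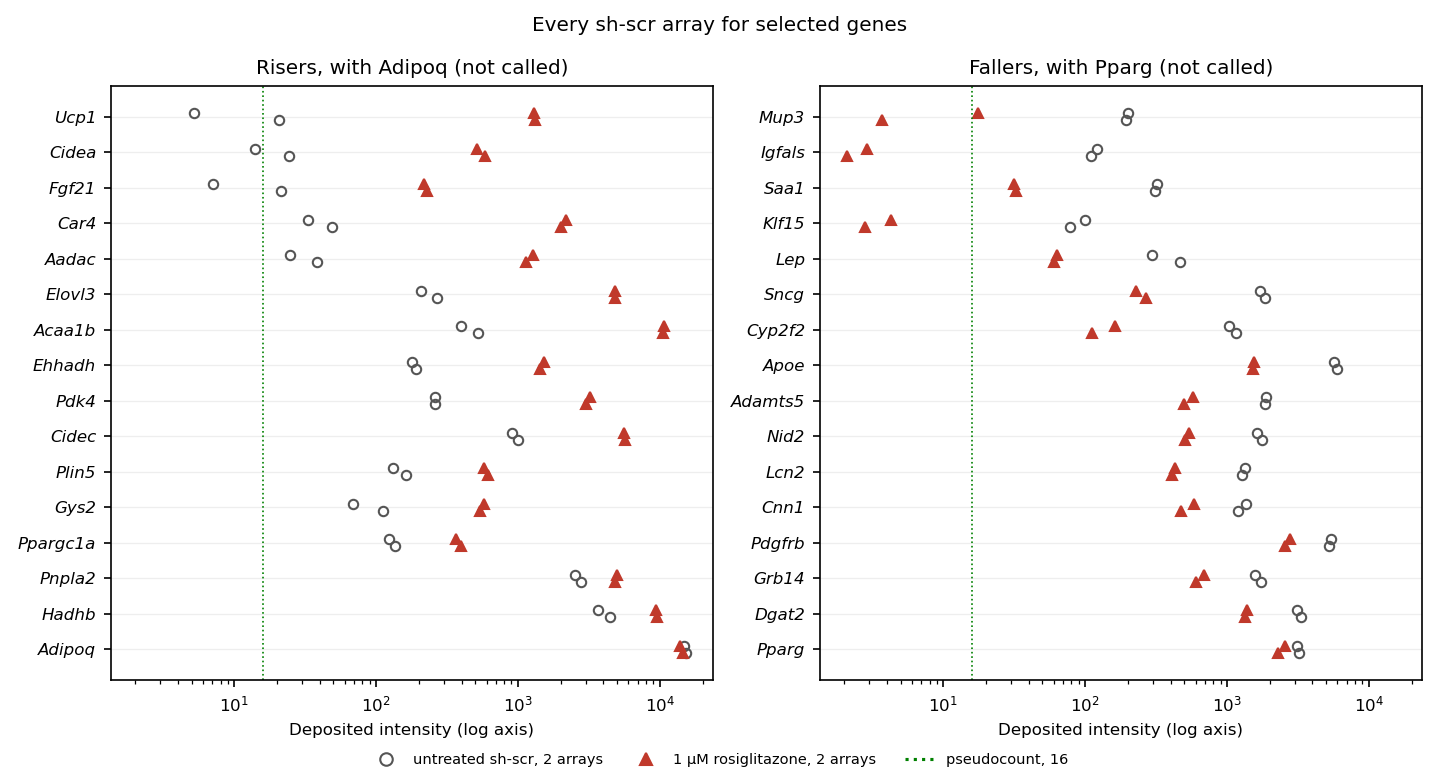
Deposited intensity on each of the 4 sh-scr arrays (log axis) for selected genes that rose (left, with Adipoq, which was not called) and fell (right, with Pparg, which was not called); open circles are the 2 untreated arrays, filled triangles the 2 treated arrays, and the dotted line is the pseudocount of 16. Ucp1 moves from 5.2 and 20.6 to 1295.5 and 1322.0, Igfals from 120.7 and 110.7 to 2.9 and 2.1, and in every gene drawn except Adipoq the replicate arrays lie closer to each other than to the other group.

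Of 16 genes for proteins that coat lipid droplets or enlarge them, 8 rose and 0 fell (median 0.67). Cidec, which lets small droplets merge into large ones, read 906 and 994 untreated and 5565 and 5697 treated (2.86, SE 0.08, adjusted p = 4.9e-05). Plin5, a perilipin that ties droplets to mitochondria in oxidative tissue, read 132.5 and 163.0 against 578.7 and 617.1 (2.22, adjusted p = 0.00043). Both genes had groups that lay well apart. Plin2, the ubiquitous perilipin, rose from 8005 and 8539 to 12207 and 12417, and Hilpda, an inhibitor of lipolysis, from 394 and 445 to 872 and 764.

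Genes of lipolysis, the release of fatty acids from stored fat, moved in both directions. Of 20 tested, 9 rose and 4 fell (7 to 8 and 1 to 3 with an array left out). The lipases of each step were among the rises: Pnpla2 (adipose triglyceride lipase) from 2528 and 2771 to 5011 and 4835, Lipe (hormone-sensitive lipase) from 1035 and 1170 to 1851 and 1862, and Mgll (monoacylglycerol lipase) from 2389 and 2830 to 4946 and 4542. Their changes were 1.20, 1.05 and 1.17. Genes that hold lipolysis back rose too. Hcar2, a receptor that inhibits lipolysis, rose from 59.1 and 72.3 to 210.8 and 197.3 (1.74), and the inhibitory G protein subunit Gnai1 from 1563 and 1847 to 5025 and 5132 (1.88). The esterases Aadac (24.9 and 38.1 against 1268 and 1132) and Ces1d (210.7 and 262.5 against 1212 and 1135) rose by 5.0 and 2.55. Pnpla3, a lipase-like protein, and the kinase A subunits Prkacb and Prkar1a were among the 4 that fell.

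Glycerol genes rose in part, with 3 of 9 higher and 0 lower. They were the glycerol channel Aqp7 (106.8 and 157.1 against 355.0 and 412.1), the glyceroneogenic enzyme Pck1 (74.1 and 70.9 against 176.2 and 140.3) and Gpd1, which makes glycerol phosphate (2732 and 3418 against 6511 and 6818). Their changes were 1.76, 1.28 and 1.43. The last step of triglyceride synthesis was split between its enzymes. Dgat1 rose from 2044 and 2215 to 4234 and 4025 (1.26, adjusted p = 0.00022). Dgat2 fell from 3114 and 3339 to 1383 and 1328 (-0.93, SE 0.06, adjusted p = 0.00039), and its second probe set fell as well (-0.61). Over the 25 genes of triglyceride and phospholipid synthesis, 5 rose and 2 fell, with the acyltransferase Agpat3 (1.57) the largest rise.

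Of 25 genes of fatty acid synthesis, elongation and desaturation, 5 rose and 3 fell (3 to 4 and 0 to 1 with an array left out). The share that fell was 12.0%, against 11.1% of all genes. Fasn, the fatty acid synthase, fell (-0.32), as did the elongase Elovl5 (-0.23) and the desaturase Fads1 (-0.36). Acacb, the acetyl-CoA carboxylase whose product restrains fatty acid entry into mitochondria, rose from 47.4 and 42.8 to 349.6 and 341.6 (2.87, adjusted p = 8.6e-05). Of 20 genes of cholesterol synthesis 6 rose (3 to 4 with an array left out) and 0 fell. Dhcr7, the last step, rose from 281.4 and 371.8 to 862 and 1070 (1.83) and Lss, lanosterol synthase, from 587 and 715 to 1539 and 1653 (1.58).

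Mitochondrial fatty acid oxidation had 17 of 28 genes higher and 2 lower, Acadsb and Oxct1, with a median of 0.98. The rises included carriers, dehydrogenases and thiolases. Slc25a20, which carries acylcarnitine into mitochondria, went from 2073 and 2495 to 4982 and 5155 (1.46). The long-chain dehydrogenase Acadvl went from 1822 and 2039 to 4473 and 4347 (1.49), Hadhb of the trifunctional protein from 3681 and 4481 to 9465 and 9545 (1.53), and the thiolase Acaa2 from 1544 and 1794 to 4713 and 4806 (1.81). Cpt1a, the liver-type carnitine palmitoyltransferase that gates entry, read 760 and 788 untreated and 823 and 679 treated, so its groups overlapped (0.26, adjusted p = 0.066). Crat, carnitine acetyltransferase, and Mlycd, which removes the malonyl-CoA that Acacb makes, rose by 1.47 and 1.46. With an array left out, 11 to 16 genes of this list rose.

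Peroxisomes, which shorten very long fatty acids, had 15 of 42 genes higher (9 to 12 with an array left out) and 2 lower. The thiolase Acaa1b read 396 and 521 untreated and 10710 and 10528 treated (4.80), though a close paralog can share its probes. Ehhadh, the peroxisomal bifunctional enzyme, read 177.8 and 192.0 against 1516 and 1431 (3.20), and the epoxide hydrolase Ephx2 1345 and 1442 against 5399 and 4907 (2.18). The membrane transporter Abcd3 rose by 1.23. Proteins that import enzymes or build the organelle were among the rises, with Pex16 at 1.32 the largest of them. Acyl-CoA thioesterases, which release free fatty acid from CoA, had 7 of 11 genes higher (4 to 5 with an array left out) and 0 lower. Acot13 rose from 860 and 830 to 1927 and 1775 (1.42). The dim Acot1, Acot3, Acot4 and Acot5 have near-identical sequences, so their separate values are uncertain.

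RNA of genes for pyruvate entry into mitochondria changed. Pdk4, a kinase that shuts the pyruvate dehydrogenase complex, read 258 and 260 untreated and 3202 and 3036 treated. The replicates of each group lay close together and the groups far apart, for a change of 3.82 (SE 0.07, adjusted p = 1e-05). The complex itself and the carrier that feeds it rose by less: Dlat by 1.12, Pdhb by 0.96 and Mpc1 by 0.86. Of 12 genes of pyruvate entry 5 rose (2 to 5 with an array left out) and 0 fell, and of 18 glycolysis genes 6 rose and 0 fell, with Aldoc (77.3 and 89.9 against 199.0 and 239.8) the largest. With an array left out, 1 to 3 glycolysis genes rose.

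Genes of the citric acid cycle and the respiratory chain mostly changed by less than log2 1. In complex I, all 33 subunits tested were higher on centred arrays by that scale's test (background 14.8%), with a median of 0.56, but 7 rose on both scales. The 7 became 0 to 2 when an array was left out. Ndufa6, the largest of them, read 3090 and 3072 untreated and 4352 and 4915 treated (0.89). In complexes II to V, 13 of 44 genes rose (3 to 7 with an array left out) and 1 fell, Atpif1, an inhibitor of the ATP synthase. The rises included Cycs, cytochrome c, from 10805 and 11384 to 15673 and 17413 (0.88). The muscle- and brown-fat-type subunits stood apart, with Cox7a1 (458 and 525 against 1870 and 2343) at 2.37 and Cox8b (102.8 and 92.5 against 468.9 and 418.6) at 2.32. Of 20 citric acid cycle genes 7 rose and 0 fell, led by Idh3a (4251 and 4509 against 8709 and 9171), and 2 to 4 rose when an array was left out. Citrate synthase, Cs, was higher on centred arrays (0.65, adjusted p = 0.0024) and was not called on the deposited scale.

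The ribosome that translates mitochondrial RNA was also represented. Of 73 mitochondrial ribosomal protein genes 12 rose (6 with any array left out) and 0 fell, and 51 were higher on centred arrays (median 0.42). Mrpl1 went from 525 and 591 to 1140 and 1184 (1.34) and Mrpl47 from 813 and 856 to 1807 and 1619 (1.33). A second Mrpl1 probe set, of mean intensity 125, changed by 0.21 and was not called. The Mrpl1 call was lost where all probe sets of a gene were averaged. Of 43 cytosolic ribosomal protein genes 0 rose and 0 fell, with a median of 0.02. That median turned sign in other settings. Of 37 proteasome genes 1 rose, Psma1. Antioxidant genes split, with 6 of 37 higher and 11 lower (3 and 4 to 8 with an array left out), and the mitochondrial peroxiredoxin Prdx3 (2962 and 3231 against 5642 and 5488) and the microsomal transferase Mgst3 (2016 and 2321 against 6105 and 6412) among the rises.

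**Figure D3:**
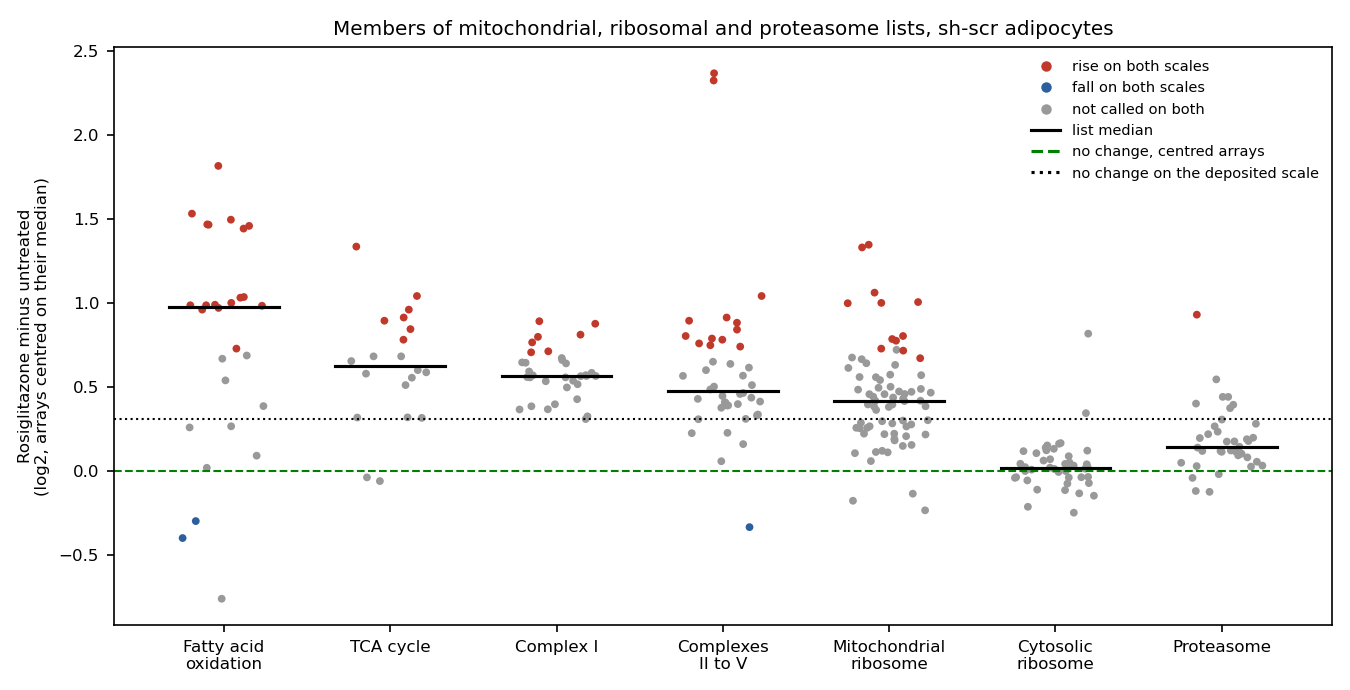
Change of each tested member of 7 gene lists (treated minus untreated sh-scr, log2, each array centred on its median); red and blue points rose or fell on both scales, bars are list medians, and the dotted line marks no change on the deposited scale. All 33 complex I subunits lie above the dashed line of no change, Cox7a1 and Cox8b stand above the other subunits at 2.37 and 2.32, and the cytosolic ribosome centres on 0.02.

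Promoters were searched for a direct repeat of AGGTCA with a spacing of 1 base, the form of element that PPAR and RXR bind, in the 250 bases before each gene's start. RefSeq promoters (GRCm38.p6) were matched for 7511 of the 9295 genes, and each motif was searched on both strands. The full repeat, 2 copies of AGGTCA with any base between them, stood in 1 of 397 promoters of genes that rose (0.252%), 0 of 796 of genes that fell and 2 of all 7511 (0.0266%). With any base allowed at the fourth position of each copy, it stood in 2 (0.504%), 3 (0.377%) and 20 (0.266%). The loosest form, which takes in both others and allows any base at the fifth position of the second copy too, stood in 5 promoters of genes that rose (1.26%), 5 of genes that fell (0.628%) and 47 of all (0.626%). The 5 were those of Prdx3, Mrps36, Etfa, Isca1 and Gcnt2, and the first 4 encode mitochondrial proteins. They are shown because these genes lie in or beside the mitochondrial groups above, and were picked by the match after the calls were known. The capitals mark the match, with 30 bases on each side, 5′ to 3′ on the strand of the gene.
Isca1, iron-sulfur assembly, chr13:59769881-59769953, minus strand: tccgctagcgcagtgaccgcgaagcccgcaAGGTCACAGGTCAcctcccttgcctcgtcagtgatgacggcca
Prdx3, peroxiredoxin, chr19:60874686-60874758, minus strand: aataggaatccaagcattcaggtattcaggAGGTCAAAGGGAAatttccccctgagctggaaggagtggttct
Mrps36, listed with the mitochondrial ribosome, chr13:100744697-100744769, minus strand: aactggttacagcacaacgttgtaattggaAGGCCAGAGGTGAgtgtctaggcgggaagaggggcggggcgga
Etfa, electron transfer flavoprotein, chr9:55512278-55512350, minus strand, motif on the opposite strand: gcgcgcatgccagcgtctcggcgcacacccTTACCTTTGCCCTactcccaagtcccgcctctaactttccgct
Isca1 holds the full repeat, 134 to 122 bases before its start. Its readings were 2098 and 2329 untreated and 3028 and 2904 treated (0.73). Prdx3 changed by 1.15, Mrps36 by 1.06 and Etfa by 0.98. A match describes the letters only, and most genes that rose, Ucp1, Pdk4 and Cidec among them, had no match in this window.

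Glycogen genes rose in part, with 5 of 19 higher (1 to 3 with an array left out) and 1 lower. Gys2, the liver-type glycogen synthase, read 68.6 and 111.3 untreated and 578.0 and 541.2 treated (2.78, adjusted p = 0.00043). In insulin signalling, 2 of 26 genes rose and 4 fell (1 to 2 and 2 to 3 with an array left out). The shares of the 26 that rose and fell, 7.7% and 15.4%, lay near the 5.23% and 11.1% of all genes. Irs2, an adaptor of the insulin receptor, rose from 64.8 and 29.0 to 187.7 and 186.6 (2.06), while its relative Irs1 fell from 1430 and 1482 to 753 and 768 (-0.61). Grb14, an inhibitor of the receptor, fell from 1571 and 1742 to 685 and 604 (-1.03). The glucose transporter Slc2a4 read 317.7 and 354.0 against 274.3 and 378.3, so its groups overlapped.

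Among secreted factors, Angptl4, an inhibitor of lipoprotein lipase, rose from 3745 and 4581 to 8221 and 8226 (1.29, adjusted p = 0.0011). Leptin fell: Lep read 294.4 and 462.8 untreated and 63.7 and 60.7 treated (-2.0, adjusted p = 0.0014). Retn, which encodes resistin, fell from 3475 and 4346 to 1420 and 1593 (-1.05). Of 15 white-fat-selective genes, 6 fell and 1, the amino acid transporter Slc7a10, rose, a call that was lost when any of the 4 arrays was left out. Sncg, a synuclein of white adipocytes, read 1704 and 1846 against 226.8 and 268.6 (-2.46).

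Other large rises were spread over unlike functions. Egln3, an oxygen-sensing prolyl hydroxylase, rose from 404 and 528 to 2510 and 2685 (2.76), and its second probe set by 2.32. Cmbl, a hydrolase, rose from 395 and 461 to 2548 and 2488 (2.82). The detoxification list had 8 of 25 genes higher and 4 lower. Cyp4b1 read 149.0 and 169.8 against 1423 and 1411 (3.34), and Glyat, a glycine acyltransferase, 25.7 and 35.8 against 334.7 and 270.8. In the other direction, Cyp2f2 read 1035 and 1161 against 163.3 and 112.0 (-2.57). The ubiquitin-like gene Ubd rose from 739 and 872 to 3201 and 3083 (2.25). Of 31 interferon and antigen presentation genes 1 rose and 1 fell (3.2% each, against 5.23% and 11.1% of all genes).

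Of 17 acute-phase and serum protein genes tested, 10 fell (9 with any array left out) and 1, Steap4, rose. Their median of -0.68 also moved with the filter, to -0.25 over 23 genes with no filter and -0.28 over 13 genes with the lower 50% left out. With no filter 9 of 23 fell and 0 rose. Saa1 read 323.2 and 308.7 untreated and 31.5 and 32.7 treated (-2.48), and Saa4 182.7 and 216.7 against 35.9 and 23.0 (-1.95). Saa3, the bright member of the serum amyloid family, read 14163 and 12256 against 8751 and 8795 and was not called on centred arrays (-0.28, adjusted p = 0.098). Cp, ceruloplasmin, fell from 2017 and 2660 to 642 and 746 (-1.41), Lcn2, lipocalin 2, from 1338 and 1267 to 431 and 407 (-1.29), and Orm1 from 1437 and 1594 to 477 and 532 (-1.25). The Saa, Orm and Mup genes have close paralogs that can share probes. Of 30 chemokine and cytokine genes 0 rose and 9 fell, Il6 among them (932 and 1164 against 462 and 420, -0.91), and 3 to 10 fell when an array was left out. Ccl2 read 2815 and 2857 against 1908 and 1646 and was not called on centred arrays.

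Apoe, which carries lipid between cells, read 5636 and 5917 untreated and 1555 and 1514 treated (-1.59, SE 0.07, adjusted p = 0.00014), and Apoc1, its neighbour in the apolipoprotein cluster, 2447 and 2678 against 950 and 1032 (-1.05). Both groups were tight and far apart. Of 20 genes of this list 2 rose and 5 fell. In the IGF axis 7 of 16 genes fell (4 to 6 with an array left out) and 0 rose. Igfals, the acid-labile subunit that binds IGF in serum, fell from 120.7 and 110.7 to 2.9 and 2.1 (-2.52, adjusted p = 0.00016), Igfbp2 from 544 and 519 to 205 and 147 (-1.22), and Igfbp4 from 4089 and 4880 to 1790 and 1809 (-1.0).

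Of 23 preadipocyte and progenitor markers 11 fell and 0 rose, and of 24 smooth muscle and pericyte genes 10 fell and 0 rose. Pdgfrb, a receptor of both lists, read 5369 and 5250 untreated and 2797 and 2548 treated (-0.68, adjusted p = 0.0018). Pdgfra fell by 0.44 on centred arrays (-0.44), while Dlk1 (54.5 and 63.1 against 48.4 and 42.1) was not called. The contractile genes Cnn1 (1360 and 1205 against 588 and 470, -0.95) and Actg2 (1151 and 1018 against 410 and 308, -1.26) fell, as did Mylk and Myl9. Tagln2 fell on 1 probe set (-1.29) and was not called on another of similar brightness (-0.16). The counts became 4 to 7 and 4 to 8 when an array was left out. In these bulk cultures, fewer cells of a type and less RNA per cell cannot be told apart.

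Of 48 collagen and fibrillar matrix genes 13 fell (8 to 9 with an array left out) and 0 rose, with a median of -0.16. Ogn, osteoglycin, fell from 2090 and 2211 to 891 and 888 (-0.95), and Plod2, which modifies collagen, from 3514 and 3866 to 1777 and 1714 (-0.77). The main collagens were not called: Col1a1 changed by -0.19 and Col3a1 by 0.02, the latter from 20894 and 20669 to 16995 and 17129 at the bright end of the table, while a second Col3a1 probe set fell by 0.69 on centred arrays (-0.69). Of 18 basement membrane genes 7 fell (3 to 6 with an array left out) and 1 rose. Nid2, nidogen 2, read 1635 and 1775 against 541 and 506 (-1.37, adjusted p = 0.00017). The aggrecanase Adamts5 fell from 1869 and 1864 to 577 and 496 (-1.47), and 8 of 27 matrix proteases and inhibitors fell (3 to 6 with an array left out) with 0 rising. Of 37 TGF-β and BMP genes 13 fell and 0 rose, of 36 Wnt genes 7 fell and 0 rose, and 3 to 7 and 4 to 7 fell when an array was left out.

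Summed intensities of most marker lists of other cells were lower on the treated arrays, and their part in these falls was not tested. The sums are of deposited intensities, and on that scale the median change of all genes tested was log2 -0.31. The summed intensity of 24 macrophage and leukocyte markers was 12700 and 14180 untreated and 8934 and 8514 treated, with Itgam, Itgax, Cd163, Cd3e, Cd3g and Cd79a under 32 on all 4 arrays. Of the 16 tested 3 fell (1 to 2 with an array left out) and 0 rose. The sum of 19 endothelial markers was 2112 and 2289 against 1447 and 1312, with Tie1, Erg and Vwf under 32. Of the 16 endothelial markers tested 2 fell (12.5%, against 11.1% of all genes) and 0 rose. The sum of 16 skeletal muscle markers was 2793 and 2840 against 1484 and 1272, with 7 of them, Ckm, Myh2, Myh4, Tnni2, Myod1, Myog and Pax7, under 32. Only 6 were tested, of which 1 fell and 0 rose. The sum of 10 nerve and Schwann cell markers was 4244 and 4514 against 3419 and 3150, with Snap25 and Stmn2 under 32. Of the 8 tested 1 rose and 1 fell, and their median change on centred arrays was -0.03. The sum of 16 epithelial and mesothelial markers overlapped between the groups, 319 and 494 against 430 and 502, with 10 of them, Epcam and Cdh1 included, under 32. The sum of 18 general adipocyte genes went the other way, 85270 and 87790 against 95770 and 100400. Ratios of 3′ to 5′ signal, a sign of RNA integrity, were slightly higher on the treated arrays: log2 0.38 and 0.49 against 0.32 and 0.30 for beta-actin, and -0.35 on both against -0.41 and -0.43 for Gapdh.

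Of 26 p53 targets and growth arrest genes 11 fell (5 to 8 with an array left out) and 1, Cdkn1c, rose (37.7 and 37.8 against 93.7 and 98.6, 1.37). Gas6, a ligand of receptor tyrosine kinases, fell from 8965 and 9168 to 4168 and 3592 (-0.92). Of 35 genes of ER chaperones and the unfolded protein response 12 fell and 2 rose, Dnajb9 (1.14) and Ero1a (0.80), and 2 to 6 fell when an array was left out. Egr1, an immediate-early gene, fell from 1932 and 2054 to 877 and 696 (-1.03), while Fosl1 rose from 761 and 1004 to 1720 and 1538 (1.19). Mitosis and DNA replication genes were called rarely, with 3 of 45 lower (6.7%, against 11.1% of all genes) and 0 higher.

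**Figure D4:**
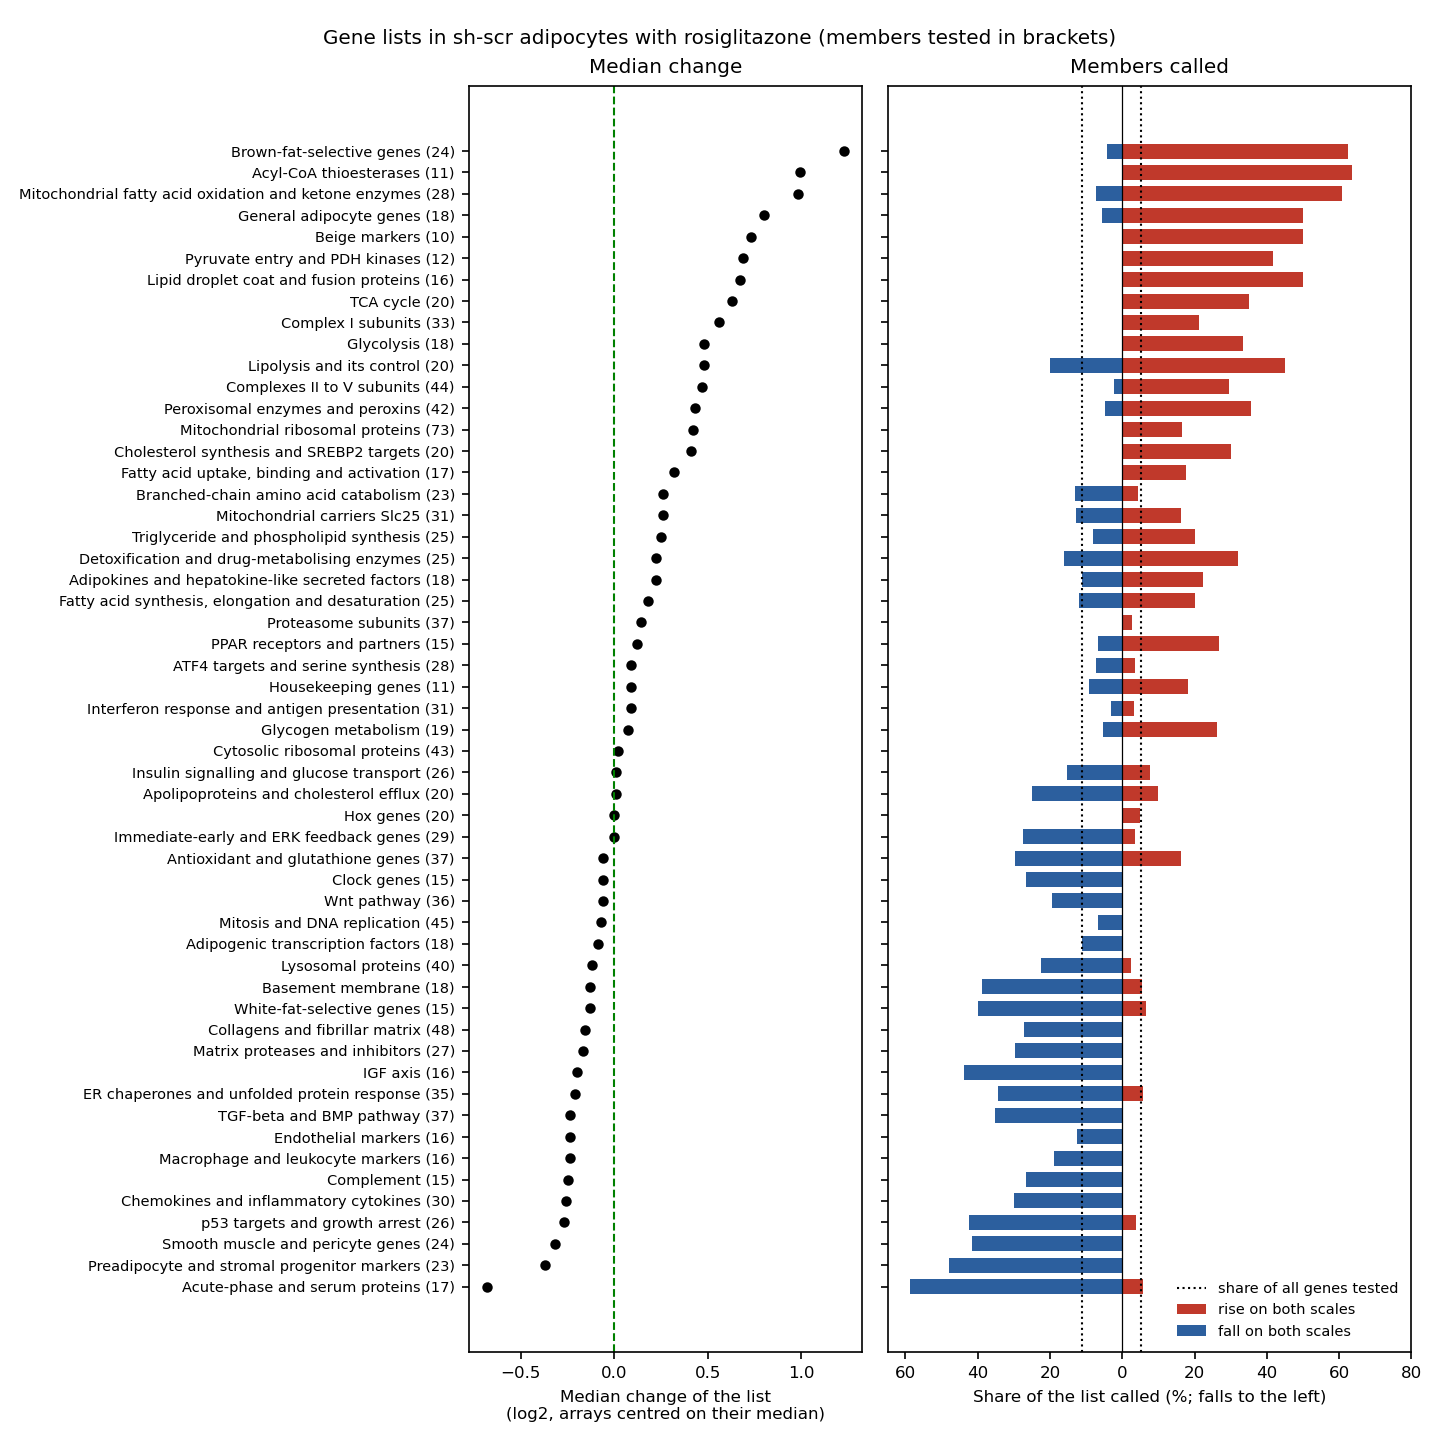
Gene lists with at least 10 members tested (number in brackets), ordered by the median change of their members on centred arrays (left, log2), with the share of members that rose (red) or fell (blue) on both scales (right, percent); dotted lines are the shares among all genes tested, 5.23% and 11.1%. Brown-fat-selective genes (median 1.23, 15 of 24 rising) stand at the top and acute-phase and serum proteins (median -0.68, 10 of 17 falling) at the bottom under the main filter on low values, and both medians move with that filter.

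The same dose in cells with the PRDM16 shRNA gave 918 rises (9.88%) and 299 falls (3.22%). The median intensities of the sh-PRDM16 arrays overlapped, at 122.3 and 105.3 untreated and 109.2 and 121.45 treated. The treated sh-scr arrays were both dimmer than the untreated ones, which bears on a rule that needs both scales. The counts of the 2 lines therefore cannot be compared directly, and the part of brightness in them was not tested. The RNA of Prdm16 was not analysed here, for want of a named probe set, and those arrays rest on their labels. The difference between the responses passed on both scales for 5 genes (0.0538%): Ucp1, Cidea, Lama5, Arhgap20 and Dgat2. Ucp1 read 4.6 and 3.4 untreated and 81.9 and 101 treated in sh-PRDM16 cells, and the fitted difference, sh-PRDM16 minus sh-scr response, was -3.47 (SE 0.32, adjusted p = 0.048). Cidea read 2.3 and 1.6 against 29.8 and 35.1 (-2.90, SE 0.21, adjusted p = 0.030). The untreated readings of both genes in sh-PRDM16 cells lie under the pseudocount of 16, which therefore sets part of these sizes. With a pseudocount of 1 the differences were -2.95 for Ucp1 (adjusted p = 0.22) and -1.65 for Cidea (adjusted p = 0.16), and neither was called. With a pseudocount of 64 the differences were -3.22 and -2.58 and both were called, so these 2 calls depend on the pseudocount. Dgat2 fell in sh-scr cells but read 1819 and 1562 against 2115 and 2260 in sh-PRDM16 cells, a difference of 1.30 (SE 0.09, adjusted p = 0.030). The count of 5 became 2 without either untreated sh-scr replicate and 0 without either treated one, and 1265 genes had an unadjusted p under 0.05 on centred arrays. For the other large rises no difference was called, such as Car4 (5.53 and 5.27), Pdk4 (3.82 and 3.47) and Aadac (5.0 and 4.70 in sh-scr and sh-PRDM16 cells). A difference that misses the threshold does not show that the responses are alike.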

How the data were processed

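The deposited values were linear intensities of 22690 probe sets on 8 Affymetrix mouse 430A_2 arrays. Per the labels, RNA was isolated with Trizol and labelled as biotinylated cRNA. No source used here gives the summarization software or the scaling by the authors. Of the probe sets, 20380 had 1 gene in the platform annotation, 691 several, 1555 none and 64 were controls. Each gene took its probe set with the highest mean. Of 12393 genes, 9295 remained after a filter on the dimmest 25%. Intensities became log2(intensity + 16), fitted with limma 3.58.1 (lmFit, eBayes, R 4.3.3) to the 8 arrays together, 1 mean for each group, on the deposited and on the median-centred scale, two-sided, at an adjusted p under 0.05. With 2 arrays a group, an exact permutation test of 1 gene could not go below 0.333, and the number of arrays limits the precision. Genes were named as the 40 largest rises and falls, the 6 largest changes of each of 58 lists and a fixed set, with some left out for length. Members and lists were chosen with earlier results of these data known. The scripts were tested on simulated data. Settings varied were scaling, pseudocount, filter, probe set choice, variance prior, replicate block, arrays fitted and each array left out.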

Additional observations from a re-analysis of the deposited data

Results flagged for a closer look

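For 5 genes the response to rosiglitazone differed between sh-scr and sh-PRDM16 cells by the test of the difference on both scales (limma). The difference, sh-PRDM16 minus sh-scr response on centred arrays, was log2 -3.47 for Ucp1, -2.90 for Cidea, -2.38 for Lama5, -1.54 for Arhgap20 and 1.30 for Dgat2. Lama5, a laminin chain, read 14.9 and 12.6 untreated and 44.7 and 37.3 treated in sh-scr cells, and 41.3 and 44.1 against 7.1 and 15.2 in sh-PRDM16 cells. All of its values are dim, its difference was -3.78 with a pseudocount of 1 and -1.19 with one of 64, and its other probe set changed by 0.02 in sh-scr cells. Arhgap20 read 57.4 and 56.4 against 112 and 121 in sh-scr cells, and 128.6 and 103.7 against 84.7 and 87.9 in sh-PRDM16 cells. With a pseudocount of 1, Dgat2 was the only one of these 5 still called on both scales, at 1.28, while Ucp1 (-2.95), Cidea (-1.65), Lama5 and Arhgap20 (-1.78) were not.

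Among 2246 probe sets that the annotation pairs with no gene or with several, which the comparison of genes did not use, 49 rose and 47 fell on both scales in sh-scr cells. Their changes reached log2 4.47 and -2.17, and 7 of the rises were over log2 2.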

How the results depend on the processing

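No call of a gene turned to the opposite call in any of 13 other settings. Of 279 named genes that were called, 164 kept their call in every setting that tested them (119 tested in all 13, 45 in 12), 115 lost it in at least 1, and 0 changed sign. Col3a1, not called here, was called lower (-0.37) where all probe sets of a gene were averaged. Of 519 genes that fell and had other probe sets, 335 had all of these lower on centred arrays. For rises, 191 of 206 had all others higher. With only other probe sets of intensity 100 or more, these were 316 of 349 and 115 of 116. For 2 genes that fell, Ighm and Phka2, another probe set was called higher. Counts of rises stayed within 1.5 times under other scalings, pseudocounts, filters and priors. The falls numbered 584 when only the 4 sh-scr arrays were fitted. Leaving out 1 array gave 246 to 318 rises, 378 to 755 falls, 1088 to 2390 calls on the deposited scale and 1213 to 1817 on centred arrays. The 5 differences from sh-PRDM16 cells became 13 with quantile normalization, 2 with a pseudocount of 1, 0 with no filter, 1 with the replicate block, and 0 to 2 with an array left out. With a pseudocount of 64 the same 5 genes were still called, and the full count of differences in that setting is not given here. Replicate numbers did not pair the arrays (correlation of deviations 0.024 in sh-scr groups), and with the replicate block 438 genes rose and 909 fell. The medians of 10 of 58 lists turned sign in some setting, such as that of skeletal muscle markers, from -0.31 to 0.09 with no filter. Dim genes, under an intensity of about 32, have understated changes, and differences between their responses in the 2 lines depend on the pseudocount.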
